A study of Rattus norvegicus with 36 samples.

Results

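The comparison describes the rat soleus 8 days after a contusion of the spinal cord. It was chosen by the sample labels alone, as the 6 arrays of injured, untrained rats at day 8 (SCI8d) against the 6 arrays of uninjured controls (CTR), and these are 12 of the 36 arrays of the series. All animals were adult female Sprague Dawley rats, and each rat gave the RNA of its left soleus to 1 oligonucleotide array. SCI8d rats received a moderate contusion at the mid-thoracic cord and no treadmill training, whereas CTR rats were age matched and were labelled as taken before injury. According to the methods, injured rats also had ketamine and xylazine anesthesia, a laminectomy, analgesics (buprinex and ketoprofen), single housing and manual bladder expression. No sham operation of CTR rats is described there. Experimental animals also had access to a dough diet, and whether CTR rats had it too is not stated. Surgery, drugs, care, diet and the contusion itself therefore cannot be told apart between these groups. The rats of the SCI3d and SCI14d groups, killed 3 and 14 days after the same injury and also untrained, served as neighboring time points with 6 arrays each. As background, a contusion at this level interrupts descending drive but spares the motor neurons of the lower cord, and load, activity and innervation of these muscles were not measured on the arrays.

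The soleus is a postural calf muscle made mostly of slow, oxidative fibers that burn fatty acids and ketone bodies in their mitochondria. When such a muscle loses load and activity it shrinks, its fibers tend to turn from slow to fast contractile proteins, and reloading of a weakened muscle can damage fibers, which are then rebuilt from satellite cells. Signals on these arrays are linear intensities scaled by the authors to the same array mean, and log2 fold changes are SCI8d minus CTR. A gene that is said to have risen or fallen passed an adjusted p of 0.05 in limma over all 31042 probe sets. All 14 defining markers of the soleus fiber were bright, and their median log2 fold change was 0.01. In limma 0 of them passed and 1 had an unadjusted p under 0.05, 1 passed in the methods' t-test, 2 passed after quantile normalization, and 1 fell without SCI8d replicate 1. The slow myosin heavy chain Myh7 had signals of 54690, 63030 and 87510 (lowest, median and highest) in CTR and 48620, 64700 and 90830 in SCI8d, so slow muscle was borne out in both groups. These markers do not show whether single arrays also held some fast muscle.

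The array SCI8d replicate 1 lay with the controls. On a scale where 0 is the mean of the other controls and 1 the mean of the other SCI8d arrays, it lay at 0.202, inside the CTR range of 0.0937 to 0.257, while SCI8d replicates 2 to 6 lay at 0.822 to 1.04. Its median correlation was 0.9244 with the CTR arrays and 0.9093 with the SCI8d arrays, the reverse of the order found for the other SCI8d arrays. The array was kept in the main results because no label sets it apart, and the counts of gene lists against CTR that change without it are given both ways. Medians of the 12 arrays ran from 189.7 to 212.2, and its ratio of the 3′ to the 5′ GAPDH control probe sets was 1.06, the lowest of a range whose highest was 1.61 in CTR replicate 3. A further 3 arrays matter for single gene groups: CTR replicate 2 had a high level of fast fiber genes, and CTR replicates 1 and 6 a low level of some of them.

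**Figure D1:**
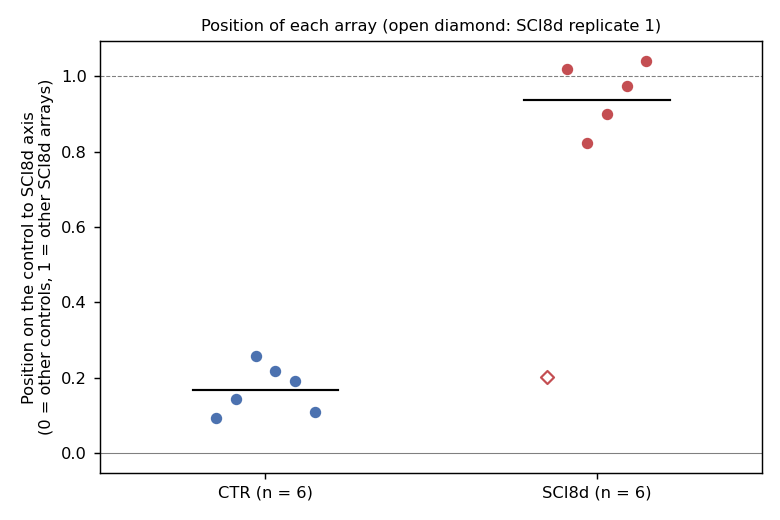
Position of each array (points) between the other controls (0) and the other SCI8d arrays (1), by group, with the median of each group as a bar. SCI8d replicate 1 (open diamond, 0.202) lay within the range of the CTR arrays (0.0937 to 0.257), and the other 5 SCI8d arrays lay at 0.822 to 1.04.

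In SCI8d, 934 probe sets rose and 1018 fell (3.01% and 3.28% of those tested). With each array centred on its median the split was 685 and 1201, so the share of falling probe sets moved from 52.2% to 63.7%. For the 14217 genes with a single symbol, 489 rose (3.44%) and 710 fell (4.99%), and the median of all genes was -0.01. Without SCI8d replicate 1, 893 genes rose (6.28%) and 1191 fell (8.38%), among them 477 of the 489 and 702 of the 710. When each of the 12 arrays was left out in turn, 185 of the rising and 348 of the falling genes kept their call every time. Groups without overlap, meaning that every SCI8d array lay on the same side of every CTR array, were found for 1.37% of genes with SCI8d higher and 2.33% with SCI8d lower, and for 5.14% and 7.69% without SCI8d replicate 1. For most gene groups the calls kept in all 12 omissions are given below, and so are the calls of the methods' t-test after adjustment where they differ by more than 1.5 times from those of limma. The study itself used that test at an unadjusted p under 0.05, so the adjusted calls here are stricter than its own. Without adjustment the test gave 6272 of the 31042 probe sets. Bright genes were called more often, as 5.91% of the 3554 genes with the highest mean signal rose and 10.1% fell, and most genes of energy metabolism belong to that bright range. Without SCI8d replicate 1, 11.1% of these bright genes rose and 16% fell.

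Every gene of the fatty acid oxidation list fell. All 20 were lower in SCI8d, 16 of them in all 12 omissions, with a median log2 fold change of -1.09 and a range from -1.90 to -0.61. Among genes of fatty acid uptake and storage, 10 of 15 fell and none rose (median -0.95), 8 of them in all 12 omissions, while 12 fell without SCI8d replicate 1 and the methods' t-test called 6. Fabp3, which carries fatty acids through the cytosol of muscle, had signals of 39110, 44420 and 57790 in CTR and 6648, 9035 and 20910 in SCI8d. Its groups were far apart, and replicates 1 and 3 were the highest of the injured arrays. Fabp3 fell by 2.07 on the log2 scale (SE 0.37, adjusted p = 0.000958). Lipoprotein lipase, Lpl, which frees fatty acids from blood lipids at the capillary wall, had signals of 27270, 31120 and 33140 in CTR against 10230, 14980 and 19990 in SCI8d. No array of the groups overlapped, replicate 1 was among the other injured arrays, and Lpl fell by 1.11 (SE 0.26, adjusted p = 0.00812). The fatty acid transporter Cd36 fell by 1.26 (adjusted p = 0.0035), with SCI8d replicate 1 at 18600 inside the CTR range of 17760 to 24040 and the other injured arrays below it.

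The steps inside the mitochondrion fell to differing extents. The largest fall of the oxidation list was that of Acot2, a mitochondrial thioesterase that splits acyl-CoA, with signals of 2388, 3278 and 4286 in CTR and 620.8, 846 and 1616 in SCI8d. All injured arrays were below all controls, and the log2 fold change was -1.90 (adjusted p = 0.000238). The isomerase Eci1, needed for unsaturated fatty acids, followed at -1.73 (adjusted p = 0.0013). The carnitine shuttle fell by similar amounts at each step, with Cpt1b at -1.09, Slc25a20 at -1.10 and Cpt2 at -1.31. The beta subunit of the trifunctional protein, Hadhb, had signals of 28320, 32070 and 39900 in CTR and 16050, 18700 and 24090 in SCI8d. These did not overlap, and Hadhb fell by 0.77 (SE 0.15, adjusted p = 0.00222). The smallest falls of the list were those of the dehydrogenases Acadl (-0.61) and Acadm (-0.62). The call of Acadm was lost in 10 of the 12 omissions and that of Acadl without SCI8d replicate 6 (adjusted p = 0.0646), while the calls of Acads and Acadvl were kept in all 12.

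Most genes of ketone body metabolism fell. Of the 5 measured 4 fell, all of them in all 12 omissions, 5 fell without SCI8d replicate 1, and the median was -1.05. Bdh1, which oxidizes hydroxybutyrate to acetoacetate, had signals of 825.1, 1440 and 2043 in CTR and 126.9, 221 and 331.5 in SCI8d. SCI8d replicate 1 was at 246.9, in the middle of the injured arrays, and Bdh1 fell by 2.74 (SE 0.42, adjusted p = 0.000241). Oxct1, the transferase that commits acetoacetate to oxidation, had signals of 16890, 21590 and 24100 in CTR and 4416, 9038 and 11370 in SCI8d. All injured arrays were lower, and Oxct1 fell by 1.36 (SE 0.28, adjusted p = 0.00365). Oxct1 was the only 1 of these genes that differed from day 3, being 1.52 higher at day 8 (adjusted p = 0.000994), as it stood at -2.88 against CTR in SCI3d. Acat1, the thiolase after it, and Slc16a1, a transporter of lactate and ketones, fell by 1.05 and 0.96 (both adjusted p = 0.000402).

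Several of the genes with the lowest fold changes overall handle lipid droplets and acetate. The acetyl-CoA synthetase Acss1 of the mitochondrion had signals of 4016, 5305 and 6437 in CTR and 361.2, 777 and 2318 in SCI8d, and fell by 2.65 (adjusted p = 0.000215). G0s2, an inhibitor of the lipase that opens lipid droplets, fell by 3.16 (adjusted p = 0.00331), with SCI8d replicate 1 at 5481 among the controls and the median of the injured arrays at 335.2. The glycerol channel Aqp7 fell by 3.64, the most among the genes named by size, from a CTR range of 1757 to 4003 to an SCI8d range of 77.86 to 778 (adjusted p = 0.000215). Aqp7 and the droplet coat gene Plin4 (-2.44) are also markers of fat cells. Of 11 adipocyte markers 4 fell and none rose (median -1.37), namely Aqp7, Plin4, Lipe and Fabp4, and 3 of these calls were kept in all 12 omissions, while 5 fell without SCI8d replicate 1. The summed level of the adipocyte list ran from -1.80 to -0.76 in SCI8d and from -0.46 to 0.52 in CTR. Fewer fat cells in the sample and less RNA per cell cannot be told apart in whole muscle, and this holds for each cell type below. The defining fat cell gene Adipoq stood at -1.71 with an adjusted p of 0.111, and the part of fat cells in the lipid genes was not tested.

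**Figure D2:**
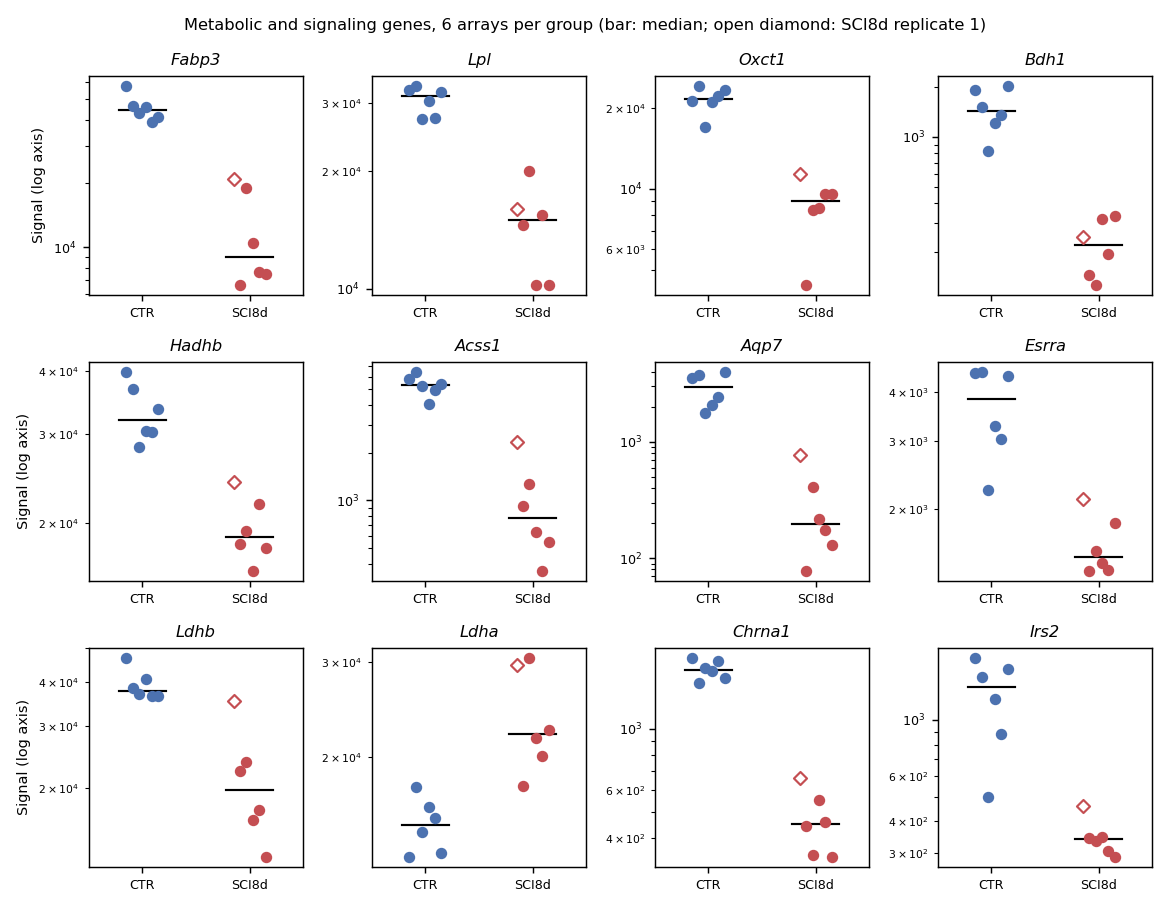
Signal (log axis) of 12 metabolic and signaling genes in the 6 CTR and 6 SCI8d arrays, with each group's median as a bar and SCI8d replicate 1 as an open diamond. Replicate 1 lay mid-range among the injured arrays for Lpl and Bdh1, and was the highest of them, though below all controls, for Fabp3, Oxct1, Hadhb, Acss1, Aqp7, Esrra, Ldhb, Chrna1 and Irs2.

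For the later stages of respiration the list medians were nearer to 0. In the citrate cycle and pyruvate dehydrogenase list 15 of 23 genes fell (median -0.58), in complex I 13 of 27 (median -0.49), in complexes III and IV 6 of 20 (median -0.39), and in ATP synthase 3 of 14 (median -0.26). None of these lists held a rising gene. The calls kept in all 12 omissions were 7, 6, 2 and 2 in that order, and without SCI8d replicate 1 the counts were 19, 19, 11 and 4. Quantile normalization gave 14 calls in complexes III and IV and 7 in ATP synthase, and the methods' t-test called 8, 7, 1 and 2 genes of these lists. The core subunit Ndufs1 had the largest fall in complex I, with signals of 13040, 18150 and 19680 in CTR and 6888, 8416 and 12840 in SCI8d. The arrays did not overlap, and the log2 fold change was -0.95 (SE 0.18, adjusted p = 0.00185). Both subunits of the mitochondrial pyruvate carrier fell, Mpc1 by 0.86 (adjusted p = 0.0011) and Mpc2 by 0.78 (adjusted p = 0.00324), and so did Ogdh, a subunit of the oxoglutarate dehydrogenase, by 0.76 (adjusted p = 0.00145). Breakdown of branched-chain amino acids and propionate lay between these groups and the fatty acid genes, with 10 of 20 genes lower, 6 in all 12 omissions, and a median of -0.76. There were 16 lower without SCI8d replicate 1, and 5 calls in the methods' t-test. Citrate synthase, Cs, a common index of mitochondrial content, had signals of 23670, 25590 and 31690 in CTR and 16900, 20630 and 28760 in SCI8d, with a log2 fold change of -0.34 and an adjusted p of 0.13, and passed without SCI8d replicate 1 (-0.43, adjusted p = 0.0298).

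Of 18 regulators of mitochondrial genes, 3 fell and none rose, 2 of these calls were kept in all 12 omissions, and 5 fell without SCI8d replicate 1. Esrra, a nuclear receptor that drives genes of oxidative metabolism, had signals of 2236, 3830 and 4505 in CTR and 1391, 1513 and 2122 in SCI8d. The arrays did not overlap, with SCI8d replicate 1 highest among the injured, and Esrra fell by 1.14 (SE 0.19, adjusted p = 0.000377). Perm1, a muscle regulator known to act with Esrra, fell by 1.98 (adjusted p = 0.00331), also with no overlap. The activity-responsive receptor Nr4a1 fell by 2.02 (adjusted p = 0.0202), although 3 of the 12 omissions lost that call (highest adjusted p 0.0621). The coactivator Ppargc1a had a log2 fold change of -0.66 with an adjusted p of 0.309, and its SCI8d replicate 1, at 1922, was above all controls.

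In glycolysis 2 of 20 genes rose and 1 fell, and without SCI8d replicate 1, 2 rose and 2 fell. The muscle lactate dehydrogenase Ldha, which favors making lactate, had signals of 13050, 14940 and 17600 in CTR and 17690, 22080 and 30520 in SCI8d. The heart form Ldhb, which favors using lactate, had 36490, 37870 and 46960 in CTR and 12790, 19860 and 35290 in SCI8d. Neither gene's groups overlapped, although each came close to touching at a single array. Ldha rose by 0.64 (SE 0.15, adjusted p = 0.0108) and Ldhb fell by 0.96 (SE 0.18, adjusted p = 0.00178), and both calls were kept in all 12 omissions. The basal glucose transporter Slc2a1 rose by 0.94 (adjusted p = 0.026), a call that was lost in 4 omissions. The insulin-responsive transporter Slc2a4 stood at -0.28 (adjusted p = 0.598).

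**Figure D3:**
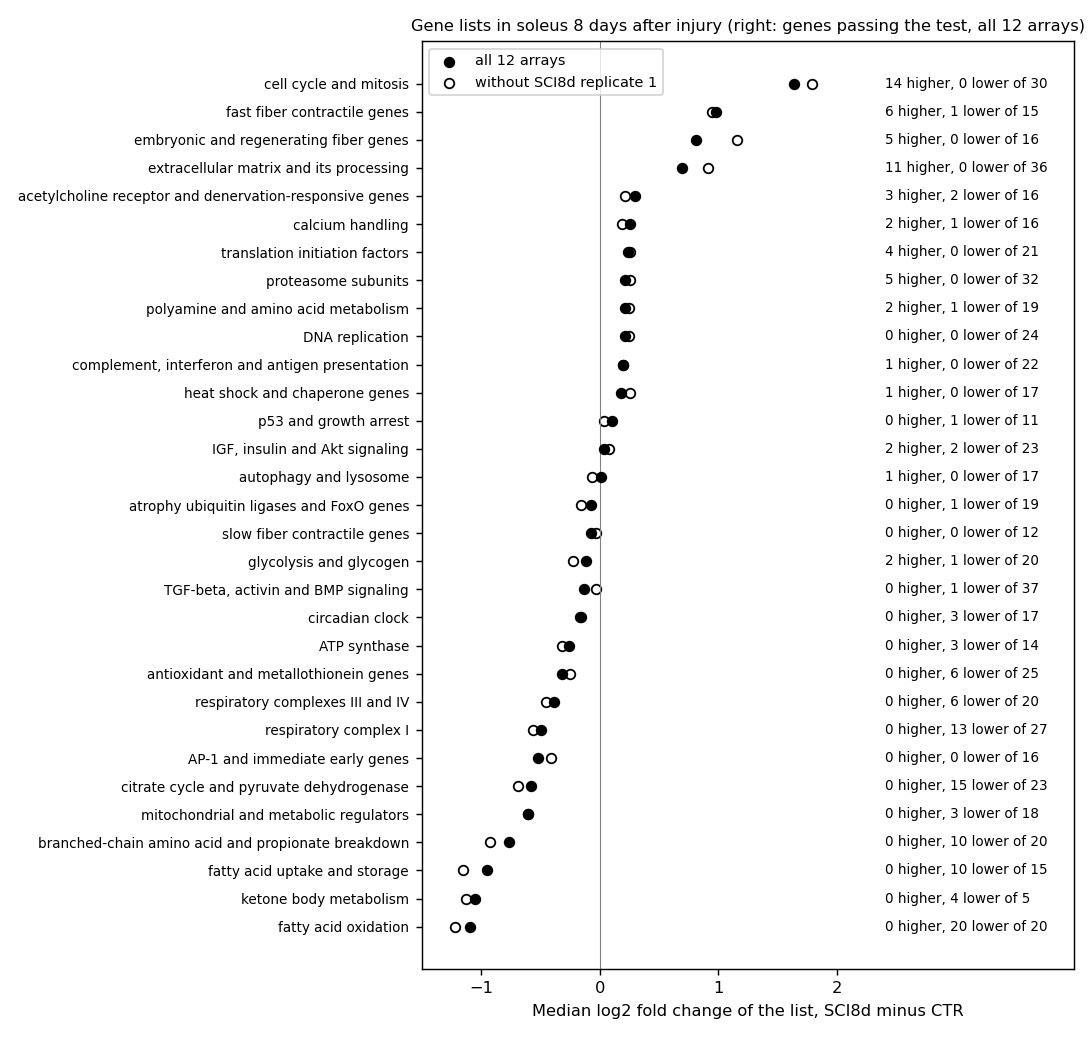
Median log2 fold change (SCI8d minus CTR) of each list of genes by function, with no lists of cell type markers, with all 12 arrays (filled) and without SCI8d replicate 1 (open), with the genes that passed the test written at the right. Of the lists plotted, fatty acid oxidation, ketone body metabolism and fatty acid uptake lay lowest (-1.09, -1.05 and -0.95), and cell cycle and mitosis lay highest (1.64).

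Slow contractile genes gave 0 calls among 12 in limma and 0 at an unadjusted p under 0.05 in limma or the methods' t-test, and their log2 fold changes ran from -0.28 to 0.07, while quantile normalization gave 1 call. Of 15 fast fiber genes 6 rose and 1 fell, with a median of 0.98, and 3 of the rising calls were kept in all 12 omissions. Without SCI8d replicate 1, 6 rose and 2 fell, and without CTR replicate 2, 8 rose and 0 fell. The methods' t-test called 0 of these 15 after adjustment and 6 at an unadjusted p under 0.05. The fast troponin T gene, Tnnt3, had signals of 1941, 16120 and 37930 in CTR and 36370, 43720 and 57430 in SCI8d. The controls were widely spread, with replicates 1 and 6 far below the rest and replicate 2 above 2 of the injured arrays, which were all high. Tnnt3 rose by 2.03 (SE 0.44, adjusted p = 0.00442), and Tnnc2, the fast troponin C gene, by 0.98 (adjusted p = 0.00998), but both also lost their call in a model of the 2 groups alone (adjusted p = 0.0753 and 0.0835). Troponin I of fast fibers, Tnni2, rose by 1.60 (adjusted p = 0.0346), but 6 of 12 omissions lost the call, as for Tpm1 (0.96, also 6 omissions) and Myoz1 (1.23, 5 omissions).

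The largest rise among the genes named by size was that of Actn3, the alpha-actinin of the fast glycolytic fiber. Its signals were 122.8, 397 and 9935 in CTR and 1793, 5360 and 37130 in SCI8d. The highest control was CTR replicate 2 and the highest injured array was SCI8d replicate 1, and only 2 injured arrays exceeded every control. Actn3 rose by 3.86 (SE 0.89, adjusted p = 0.00722), by 3.40 without SCI8d replicate 1 (adjusted p = 0.0121), and kept its call in all 12 omissions but not in the methods' t-test (adjusted p = 0.1). Both arrays were also the highest of their groups in other genes of that fiber, which did not pass the test with all arrays. The myosin Myh4 was at 13250 in SCI8d replicate 1 and 7924 in CTR replicate 2, against medians of 631.6 and 105.3, and Pvalb, the calcium buffer of fast fibers, was at 17730 and 4768 in these arrays against medians of 2522 and 265.9. Mybpc2, fast myosin binding protein C, was at 12650 and 6595 against medians of 1972 and 240.1. Without CTR replicate 2, Mybpc2 rose by 3.45 (adjusted p = 0.016), while Myh4 and Pvalb did not pass (adjusted p = 0.0602 and 0.188).

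**Figure D4:**
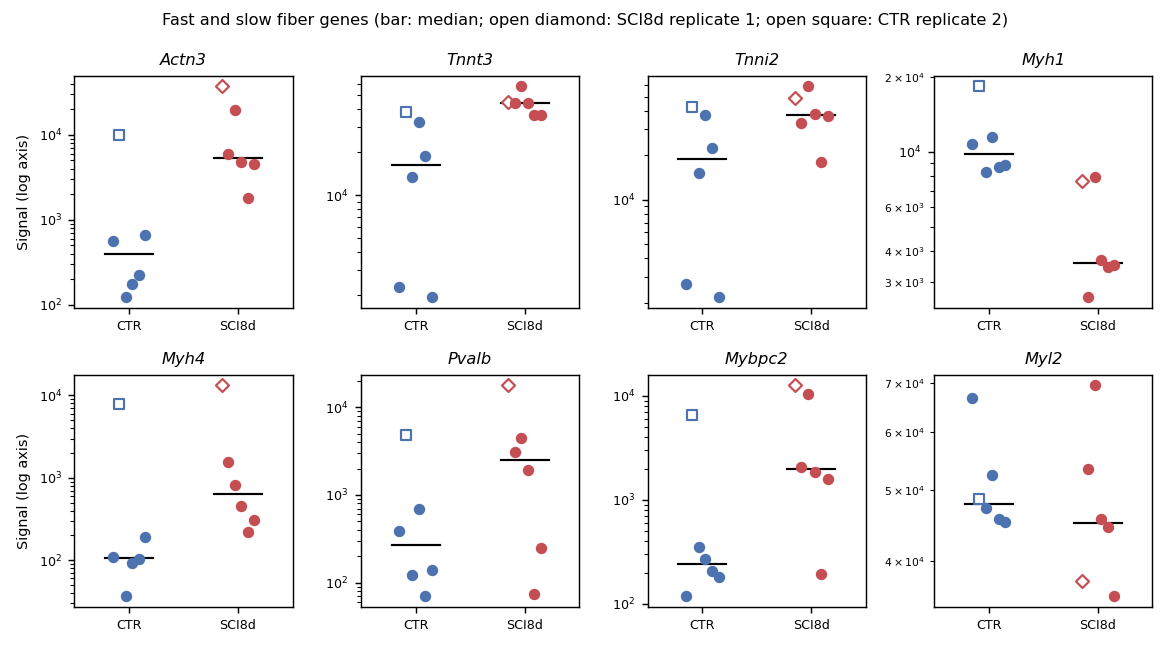
Signal (log axis) of fast fiber genes and the slow light chain Myl2 in each CTR and SCI8d array, with medians as bars, SCI8d replicate 1 as an open diamond and CTR replicate 2 as an open square. These arrays were the highest of their groups for Actn3, Myh4, Pvalb and Mybpc2, whereas Myl2 had overlapping groups (log2 fold change -0.12).

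A myosin of fast fibers, Myh1, went the other way. It had signals of 8274, 9774 and 18310 in CTR and 2615, 3599 and 7915 in SCI8d, and fell by 1.28 (SE 0.34, adjusted p = 0.02). The arrays did not overlap, but 4 of 12 omissions lost the call (highest adjusted p 0.0651). Of 5 probe sets for Myh1 the brightest is given here, and 1 of the others stood at 0.94, so the sign depended on the probe set. Myosin heavy chain genes are near copies of each other, so probes for Myh1, Myh3 and Myh4 may take up RNA of a neighboring gene. Phospholamban, Pln, the brake on the calcium pump of slow fibers, had signals of 480.5, 743.2 and 1414 in CTR and 169.2, 276.8 and 320.9 in SCI8d. It fell by 1.63 (SE 0.28, adjusted p = 0.000632) with no overlap, and SCI8d replicate 1 was the highest injured array.

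Genes of embryonic and regenerating fibers were highest in replicates 2 to 6 of SCI8d. Of 16 such genes 5 rose and none fell (median 0.81), 3 in all 12 omissions, and 9 rose without SCI8d replicate 1, while the methods' t-test called 2. Mybph, which encodes myosin binding protein H of the thick filament, had signals of 1336, 2115 and 5835 in CTR and 10530, 31700 and 52430 in SCI8d. Replicate 1 was the lowest injured array but still above all controls. Mybph rose by 3.73 (SE 0.57, adjusted p = 0.000215). The stretch-responsive Ankrd1 had 704.1, 2707 and 3765 in CTR and 1915, 18210 and 36660 in SCI8d, where replicate 1 gave the lowest value. The other injured arrays were all above the controls, and Ankrd1 rose by 2.79 (SE 0.71, adjusted p = 0.0156). Ncam1, an adhesion molecule of regenerating and denervated fibers, rose by 1.74 (adjusted p = 0.0261), was lower in SCI8d replicate 1 (1082) than in every control, and lost its call in 7 omissions. Among the myogenic factors, Myf6 rose by 0.86 (adjusted p = 0.00142, all 6 injured arrays above all controls). The study's own RT-qPCR did not bear out a rise of Myf6 at day 8. Myog, which drives fusion and differentiation, stood at 0.76 (adjusted p = 0.108) and at 0.93 without SCI8d replicate 1 (adjusted p = 0.0345). The embryonic myosin Myh3 was likewise at 0.64 (adjusted p = 0.393) and at 1.14 without that array (adjusted p = 0.0241), with control signals of 9621 to 18140.

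The neuromuscular junction genes did not move together. Chrna1, the alpha subunit of the acetylcholine receptor, which rises strongly in muscle that has lost its nerve, had signals of 1459, 1635 and 1807 in CTR and 342.3, 448.9 and 661.2 in SCI8d. All injured arrays, replicate 1 included, were far below the narrow range of the controls. Chrna1 fell by 1.85 (SE 0.46, adjusted p = 0.0124), and the call was kept in all 12 omissions. Colq, which anchors acetylcholinesterase, fell by 1.07 (adjusted p = 0.0276, lost in 5 omissions). Chrne, the subunit of the adult receptor, had signals of 81.74, 136.6 and 634.5 in CTR and 412.3, 922.4 and 1700 in SCI8d, and rose by 2.06 (SE 0.54, adjusted p = 0.0171, lost without SCI8d replicate 6 at 0.0537). Its groups overlapped at the highest controls and the lowest injured arrays. Runx1, a transcription factor of denervated fibers, rose by 1.34 (adjusted p = 0.0397), with SCI8d replicate 1 at 1521 among the controls, and 9 of 12 omissions lost the call. Over the 16 genes of the list 3 rose and 2 fell, of which 0 rising and 1 falling kept the call in all 12 omissions, and 4 rose and 2 fell without SCI8d replicate 1, with 2 calls in the methods' t-test.

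Among the lists of genes by function, cell division had the highest median. Of 30 genes of the cell cycle and mitosis 14 rose and none fell (median 1.64), 8 of them in all 12 omissions, and 19 rose without SCI8d replicate 1, while the methods' t-test called 7. Cdk1, the kinase that starts mitosis, had signals of 35.13, 55.24 and 76.53 in CTR and 84.67, 337 and 539.3 in SCI8d. Replicate 1 was just above the controls, replicates 2 and 3 were intermediate, and replicates 4 to 6 were highest. Cdk1 rose by 2.39 (SE 0.48, adjusted p = 0.00259). Prc1, which bundles the microtubules of the dividing spindle, had 11.82, 48.8 and 148.8 in CTR and 138.8, 626 and 909.1 in SCI8d and rose by 3.36 (SE 0.54, adjusted p = 0.000315). The order of the arrays was like that of Cdk1, with replicate 1 inside the controls. E2f8, a repressor of the cycle that is itself made in dividing cells, rose by 3.15 (adjusted p = 0.00259). In limma 0 of 24 DNA replication genes passed (median 0.21), 4 had an unadjusted p under 0.05 (5 in the methods' t-test), and 1 rose without SCI8d replicate 1. The proliferation marker Mki67 rose by 2.09 (adjusted p = 0.0285, lost in 5 omissions), whereas the replication gene Mcm2 stood at 0.42 (adjusted p = 0.268).

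The promoters of Cdk1 and Prc1 are shown as examples of rising genes of the division list, and because their windows hold letters that are common in genes of mitosis. Each runs from 250 bases before to 50 after the start of the gene in RefSeq (GRCr8), on the plus strand at chr20:19265043-19265342 for Cdk1 and chr1:143659231-143659530 for Prc1. Capitals mark CCAAT, the box bound by NF-Y, on either strand (ATTGG is its reverse complement), and TTTGAAA, the form of the cell cycle homology region searched, also on either strand.
Cdk1: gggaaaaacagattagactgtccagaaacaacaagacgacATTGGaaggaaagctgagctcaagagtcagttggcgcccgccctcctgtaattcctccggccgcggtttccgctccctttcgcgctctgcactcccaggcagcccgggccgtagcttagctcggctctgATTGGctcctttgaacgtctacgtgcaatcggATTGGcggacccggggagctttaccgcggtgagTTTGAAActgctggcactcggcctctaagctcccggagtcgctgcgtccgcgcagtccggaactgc
Prc1: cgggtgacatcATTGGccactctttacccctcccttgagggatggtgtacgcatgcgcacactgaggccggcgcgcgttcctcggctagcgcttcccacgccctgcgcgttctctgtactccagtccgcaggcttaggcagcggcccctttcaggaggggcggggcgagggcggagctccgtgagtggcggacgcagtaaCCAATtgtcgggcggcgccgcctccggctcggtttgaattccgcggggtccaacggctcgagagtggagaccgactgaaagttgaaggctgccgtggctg
Cdk1 has CCAAT 210, 81 and 49 bases before the start, read on the minus strand, and TTTGAAA 16 bases before it. Prc1 has CCAAT at 239 bases before the start on the minus strand and at 50 on the plus strand, and no TTTGAAA in this window. The shorter TTTGAA, which was not searched, does occur in the Prc1 window in lower case. CCAAT was found in 17 of the 22 division genes with a window, against 37.5% of all 33469 windows, in 13 of 23 replication genes, in 7 of 24 matrix genes and in 6 of 16 genes of fatty acid oxidation. TTTGAAA was found in 5, 1, 0 and 1 genes of these lists, against 6.81% of all windows. TTTCGCGC, a form of the E2F site, was in 1 of the 22 division and 8 of the 23 replication genes, against 0.326% of all windows. That division gene was Cdk1, whose TTTCGCGC is left in lower case in the window above. The motifs were picked after a first look at such windows, and a match is a description of the letters only.

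Matrix genes rose next to them. Of 36 genes of the extracellular matrix and its processing 11 rose and none fell (median 0.70), 6 in all 12 omissions, and 20 rose without SCI8d replicate 1. The methods' t-test called 0 of the 36 after adjustment and 13 at an unadjusted p under 0.05. Lox, which cross-links collagen, had signals of 839.2, 1360 and 4574 in CTR and 1893, 10410 and 17190 in SCI8d. CTR replicate 3 was the highest control and overlapped with SCI8d replicates 1 and 2, while replicates 4 to 6 were highest. Lox rose by 2.30 (SE 0.47, adjusted p = 0.00304). Col3a1, the fibrillar collagen of young scar tissue, had 11280, 17330 and 37840 in CTR and 16860, 44630 and 61520 in SCI8d and rose by 1.21 (SE 0.26, adjusted p = 0.00434). All injured arrays but replicate 1 were above the controls. Col5a2 and the collagen VI genes Col6a2 and Col6a3 rose by 1.52, 1.43 and 1.32. Tenascin C, Tnc, made in tissue under repair, had the largest rise of the list, 2.38 (adjusted p = 0.0318), and lost its call in 8 omissions. The main collagen gene Col1a1 did not pass (0.78, adjusted p = 0.29), with control signals from 2965 to 46400. Of 12 fibroblast markers 3 rose, 2 in all 12 omissions, and 5 rose without SCI8d replicate 1. The methods' t-test called 0 after adjustment and 5 at an unadjusted p under 0.05. Fap rose by 1.85 (adjusted p = 0.00676), and the summed level of the list ran from -0.15 to 0.93 in SCI8d and from -0.70 to 0.65 in CTR, so its groups overlapped. The part of fibroblasts in the matrix genes was not tested.

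**Figure D5:**
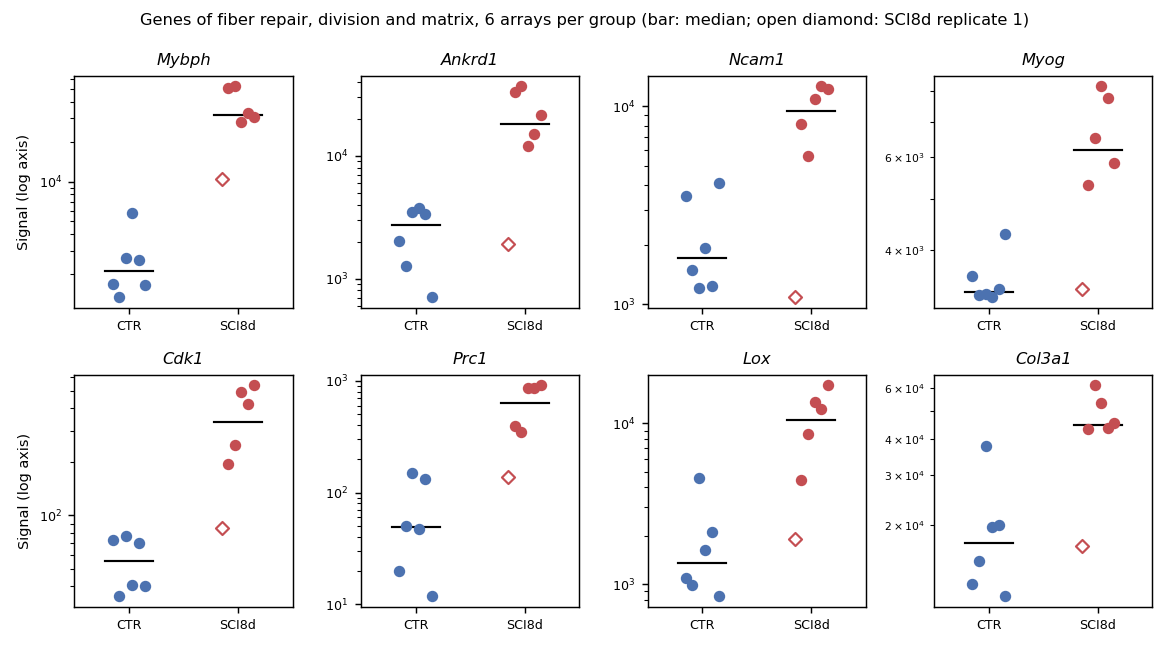
Signal (log axis) of genes of fiber repair, cell division and matrix in each CTR and SCI8d array, with medians as bars. SCI8d replicate 1 (open diamond) was the lowest injured array in all 8 panels, and lay within or below the controls for Ankrd1, Ncam1, Myog, Prc1, Lox and Col3a1.

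In growth signaling, some calls changed without SCI8d replicate 1, as they did over all genes. Of 37 genes of the TGF-beta, activin and BMP pathways, in which myostatin and activins restrain muscle growth and BMPs favor it, 1 fell and none rose. This was Bmp6, a BMP ligand, at -0.82 (adjusted p = 0.0248, lost in 4 omissions), and median centring gave 2 calls in these pathways. Over all genes, leaving out SCI8d replicate 1 moved the rising share from 3.44% to 6.28% and the falling share from 4.99% to 8.38%. In these pathways it gave 4 rising and 1 falling. The rising genes were Fstl1, a follistatin-like protein (1.05, adjusted p = 0.00823), the ligand Tgfb2 (1.06, adjusted p = 0.0484), Ltbp1, which binds latent TGF-beta (0.93, adjusted p = 0.0144), and Smad1. The antagonist follistatin, Fst, had signals of 368.5, 522.3 and 757 in CTR and 547.3, 819.9 and 1103 in SCI8d, a log2 fold change of 0.60 with an adjusted p of 0.133. Its groups overlapped in 3 injured arrays. Among the signal carriers, Smad1 was at 0.46 (adjusted p = 0.0582) and passed without SCI8d replicate 1 (0.55, adjusted p = 0.0163), and Smad3 was at 0.39 (adjusted p = 0.167). Smad4, Smad5 and Smad6 had log2 fold changes between -0.13 and 0.04, and the receptors Acvr2b and Bmpr2 stood at -0.44 and -0.03, none of them passing the test.

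The insulin side held the clearest single change. Irs2, an adaptor of the insulin receptor, had signals of 499.4, 1344 and 1754 in CTR and 290, 339.7 and 459.3 in SCI8d. All injured arrays were below all controls, with CTR replicate 3 the lowest control. Irs2 fell by 1.73 (SE 0.27, adjusted p = 0.000242). Ddit4, an inhibitor of mTOR induced by stress and glucocorticoids, fell by 0.87 (adjusted p = 0.0113), and both calls were kept in all 12 omissions. Mtor itself rose by 0.42 (adjusted p = 0.0268, lost in 6 omissions) and Igfbp6, an IGF binding protein, by 0.83 (adjusted p = 0.0322, lost in 8 omissions). These were the 4 calls of the list, which gave 2 with median centring and 1 in the methods' t-test. Igfbp5 had signals of 5555, 8079 and 12590 in CTR and 3963, 6059 and 23420 in SCI8d, where SCI8d replicate 1 was highest, and stood at -0.23 (adjusted p = 0.773).

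Genes of protein turnover differed by list. As background, 3.44% of all genes rose and 4.99% fell, as did 5.91% and 10.1% of the bright genes. Proteasome subunits and initiation factors rose more often than these shares, and the ligase and FoxO genes did not. Of 19 atrophy ligase and FoxO genes 1 fell and none rose, the F-box gene Fbxo21 at -0.86 (adjusted p = 0.00843, kept in all 12 omissions). Leaving out SCI8d replicate 1 gave 3 falling genes, Fbxo21 with Foxo4 (-0.93, adjusted p = 0.00721) and Klf15 (-1.10, adjusted p = 0.0249), both transcription factors, and the methods' t-test called 2. Trim63, the MuRF1 ligase that marks muscle wasting, had signals of 3854, 5236 and 5638 in CTR and 4387, 5837 and 8972 in SCI8d, at 0.33 with an adjusted p of 0.309, and Fbxo32, the atrogin ligase, was at -0.44 (adjusted p = 0.52). Of 32 proteasome subunits 5 rose and none fell, and 31 had a fold change above 0 (median 0.22), while 7 rose without SCI8d replicate 1. The regulatory subunit Psmd11 rose by 0.66 (adjusted p = 0.0119), with 5 of 6 injured arrays above all controls, and was the only one of the 5 to keep its call in all 12 omissions. With all arrays the proteasome was lower than at day 3, with 29 of the 32 subunits down (median -0.65) and a background of 4.47% of all genes lower than in SCI3d. Translation initiation factors gave 4 rising genes of 21, none of which kept its call in all 12 omissions, and 6 rising and 1 falling without SCI8d replicate 1. With median centring, and also in the methods' t-test, the proteasome and the initiation factors gave 1 call each. Glul, which makes glutamine, rose by 0.92 (adjusted p = 0.00145, all 6 injured arrays above all controls), and Odc1, the entry enzyme of polyamine synthesis, fell by 0.90 (adjusted p = 0.00953). SCI8d replicate 1 was the lowest injured array for Odc1 (2115). Over the 12 omissions Odc1 ran from -1.05 to -0.67 and kept its call, which it lost in the methods' t-test (adjusted p = 0.121).

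Among stress and timing genes, 6 of 25 antioxidant and metallothionein genes fell and none rose (median -0.31). Catalase, Cat, which destroys the peroxide made in fatty acid oxidation of peroxisomes, had signals of 14300, 15690 and 19100 in CTR and 4456, 6015 and 11020 in SCI8d. The groups did not overlap, and Cat fell by 1.32 (SE 0.29, adjusted p = 0.00457). Nqo1, a quinone reductase, and Prdx5, a mitochondrial peroxiredoxin, fell by 1.38 and 0.66 (adjusted p = 0.00556 and 0.00399), and these 3 calls were kept in all 12 omissions. The clock gene Per1 had signals of 1295, 2015 and 2753 in CTR and 320.6, 551.2 and 793.3 in SCI8d. It fell by 1.85 (SE 0.30, adjusted p = 0.000336) with no overlap, replicate 1 lying among the other injured arrays, and was also 1.69 lower than in SCI3d (adjusted p = 0.000631). Of 17 clock genes 3 fell and none rose, 1 call was kept in all 12 omissions, and 3 fell and 1 rose without SCI8d replicate 1. The methods' t-test called 1, and the hour of tissue collection was not given in the sources used here. In limma 0 of 16 AP-1 and immediate early genes passed, 2 having an unadjusted p under 0.05 (1 in the methods' t-test), and Jun stood at -0.45 (adjusted p = 0.413), with control signals from 4961 to 15100. No heat shock gene fell, and 1 of 17 rose, Hspb8 by 0.80 (adjusted p = 0.0308, lost in 7 omissions), while 2 rose without SCI8d replicate 1 and the methods' t-test called 0.

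Large changes outside these lists were found in genes with other roles. Among rising genes, Alox15, a lipoxygenase that oxidizes polyunsaturated fatty acids, had signals of 69.62, 128.7 and 243.2 in CTR and 651.9, 936.2 and 4302 in SCI8d. All injured arrays, replicate 1 included, exceeded all controls, and the rise was 3.42 (SE 0.60, adjusted p = 0.000774). C3h11orf96, a gene whose role is little known, rose by 3.16, the kallikrein Klk1 by 2.73, Prrt4 by 2.70, the protease inhibitor A2m by 3.29 and the neuropeptide gene Npw by 3.60 (adjusted p from 0.00457 to 0.0252). Of these 5, C3h11orf96 and Klk1 kept their call in all 12 omissions, while Prrt4, A2m and Npw lost it in 2, 6 and 7. For A2m and Npw, SCI8d replicate 1 was inside the range of the controls.

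Among falling genes, Mettl21c, a lysine methyltransferase of muscle, had signals of 5834, 8111 and 9756 in CTR and 416.3, 1110 and 2278 in SCI8d. SCI8d replicate 1 was the lowest of all arrays, and Mettl21c fell by 2.86 (SE 0.43, adjusted p = 0.000215). Asb18, of the ankyrin repeat and SOCS box family, had 2628, 3716 and 4713 in CTR and 142, 378 and 1455 in SCI8d, and fell by 3.16 (adjusted p = 0.000976). Prxl2a, a peroxiredoxin-like protein, had 6937, 9043 and 11690 in CTR and 886.8, 1348 and 2642 in SCI8d. Groups were apart in all 3 genes, and Prxl2a fell by 2.64 (adjusted p = 6.59e-05). Lgi1, the glutamate receptor Grm4, Prcd and cytidine deaminase, Cda, fell by 3.31, 2.71, 2.53 and 2.50 (adjusted p from 0.000315 to 0.00545), and all 7 falling genes of this paragraph kept their call in all 12 omissions.

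Of the marker lists of other cell types, that of red cells had the highest median (1.58). Of 5 erythrocyte markers 3 rose, the hemoglobin chaperone Ahsp by 2.75 (adjusted p = 0.00388), the anion exchanger Slc4a1 by 2.20 (adjusted p = 0.0155, lost without SCI8d replicate 2 at 0.0606) and Alas2, of heme synthesis, by 1.34 (adjusted p = 0.0379, lost in 7 omissions). The methods' t-test called 0 of the 5 after adjustment (Ahsp at an adjusted p of 0.0859) and 4 at an unadjusted p under 0.05. Their summed level ran from 1.05 to 3.19 in SCI8d, highest in replicate 2 and including replicate 1 at 1.33, against -0.50 to 0.64 in CTR, while the beta globin Hbb stood at 0.41 (adjusted p = 0.104). In limma 0 of 15 macrophage, 11 lymphocyte and 8 neutrophil and mast cell markers passed, while 3, 2 and 0 had an unadjusted p under 0.05 (1, 2 and 0 in the methods' t-test, which called 1 lymphocyte marker after adjustment). Of the macrophage markers 13 had fold changes above 0 (median 0.35), and 1 rose without SCI8d replicate 1. All 11 endothelial markers had fold changes below 0 (median -0.39), and 1 fell, the tight junction gene Cldn5 (-0.88, adjusted p = 0.0416, lost in 10 omissions), while median centring gave 4 calls and 2 fell without SCI8d replicate 1. Of 10 smooth muscle and pericyte markers 1 fell, the pericyte gene Rgs5 (-0.71, adjusted p = 0.046, lost in 9 omissions), and of 8 Schwann cell markers 1 fell, S100b (-1.20, adjusted p = 0.0297, lost in 5 omissions). Of 7 tendon and cartilage markers 1 fell, and 1 rose and 1 fell without SCI8d replicate 1. The tendon transcription factor Scx fell by 1.23 (adjusted p = 0.0114), with all injured arrays below all controls. Of 7 satellite cell and myoblast markers 1 rose and 1 fell, and 2 rose and 1 fell without SCI8d replicate 1. The cadherin Cdh15 rose by 0.65 (adjusted p = 0.0218, lost in 3 omissions), with all 6 injured arrays above all controls, and Chrdl2, a BMP-binding protein, fell by 1.10 (adjusted p = 0.0462, lost in 9 omissions). In the methods' t-test 0 Schwann cell and 0 tendon markers and 1 satellite cell marker passed.

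Against day 3, 676 genes were higher and 636 lower at day 8 (4.75% and 4.47%), and 768 and 713 without SCI8d replicate 1. The 2109 probe sets of this comparison became 597 in a model of the 2 groups alone and 53 in the methods' t-test after adjustment. List counts against day 3 are from the limma fit with all arrays only. Of the 30 cell cycle genes 16 were higher than in SCI3d and none lower (median 1.46), and of the 36 matrix genes 15 were higher and none lower (median 0.78). Cdk1 was 1.62 higher (adjusted p = 0.033), with 0.77 above CTR at day 3 (adjusted p = 0.315). Lox was 1.78 higher (adjusted p = 0.0174), with 0.53 above CTR at day 3 (adjusted p = 0.522). Fatty acid oxidation went further down after day 3, with 8 of 20 genes lower than in SCI3d (median -0.47), among them Hadhb by 0.57 (adjusted p = 0.0174) and Acot2 by 1.43 (adjusted p = 0.0022). By contrast Mybph (-0.01, adjusted p = 0.996) and Ankrd1 (-0.72, adjusted p = 0.639) were not found to differ between the days. Myh3 and Actn3 were higher at day 8 than at day 3, by 2.35 and 4.13 (adjusted p = 0.000527 and 0.00341).

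Against day 14, 0 probe sets passed in limma or in the methods' t-test, while 2717 and 2004 had an unadjusted p under 0.05 and the smallest adjusted p in limma was 0.107. Without SCI8d replicate 1 there were 5 (0.0161%). The values of the leading genes lay side by side at the 2 times. Hadhb stood at -0.77 against CTR at day 8 and -0.75 at day 14, Oxct1 at -1.36 and -1.35, Cdk1 at 2.39 and 2.57, and Lox at 2.30 and 2.16. These share the same controls, and the missing calls do not show that the days were alike. The medians of the lists were -1.09 and -0.76 for fatty acid oxidation, 1.64 and 1.44 for the cell cycle, and 0.81 and 0.55 for embryonic and regenerating fiber genes.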

How the data were processed

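Left soleus RNA of the 12 rats, and of SCI3d and SCI14d rats, had been hybridized to 1-color Affymetrix rat arrays. The deposited values are linear intensity signals that the authors made with MAS5 and scaled to a common array mean, and the mean without the lowest and highest 2% was between 800.31 and 800.36 on the 12 arrays. The table held 31099 probe sets, the number that the methods give as having at least 4 present calls. No detection calls were used here, and some signals were very low, such as 5.754 for Npw in SCI8d replicate 1. Single-array scaling cannot correct a change in total RNA per muscle, and the number of arrays limits the precision. The 57 manufacturer controls were left out.

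Log2 signals of all 36 arrays were fitted with limma 3.58.1 (R 4.3.3) as a model of the 6 groups with an intensity trend, and p-values were adjusted by Benjamini-Hochberg over 31042 probe sets. The fit was also run on simulated data with equal spread in all groups and no control-like array. That run therefore does not bear on the effect of SCI8d replicate 1. Symbols came from the platform annotation: 20826 probe sets had 1 symbol, 436 several and 9780 none, and 20758 matched RefSeq by gene identifier. The probe set with the highest mean log2 signal stood for a gene. A summed list level is the mean log2 signal of its genes minus the CTR mean. Motifs were counted in RefSeq (GRCr8) windows with Python 3.11.15, and figures were drawn with matplotlib 3.10.9.

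Members and gene lists were chosen with earlier results of these data known, so counts over lists are descriptions. Genes were named by a rule: the 12 highest and 12 lowest log2 fold changes among called genes above the 40th percentile of mean signal, up to 6 of the smallest p-values per list and those needed to account for a list, and genes the study discusses. Genes added for background, such as Cs, Adipoq, Ppargc1a, Slc2a4, Pvalb, Mybpc2, Trim63, Fbxo32, Mcm2, Fstl1, Tgfb2, Ltbp1, Foxo4 and Klf15, were chosen after their values were seen. Replicate numbers did not pair the samples. Alternatives covered scaling, offset, dim probe sets, weights, covariates, the model, the methods' t-test and leaving out each array.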

Additional observations from a re-analysis of the deposited data

Results flagged for a closer look

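In 25 of 254 groups of 6 arrays (127 named genes in CTR and in SCI8d) 1 array stood apart from its group by more than Dixon's limit for the share of the group's log2 range. Chance gives this in about 1 of 20 groups. SCI8d replicate 1 was the array in most cases. It was the highest of its group for Acadm (27930), Acads (3599), Acadvl (7784), Cd36 (18600), Cldn5 (1860), Cpt2 (4949), Igfbp5 (23420), Ppargc1a (1922) and Smad5 (1775). It was the lowest for A2m (16.22), Col3a1 (16860), Col5a2 (4316), Col6a2 (3124), Col6a3 (5342), Myh3 (4069), Ncam1 (1082), Npw (5.754) and Odc1 (2115). CTR replicate 2 was high for Mybpc2 (6595) and Myh4 (7924), CTR replicate 6 for Myog (4294) and CTR replicate 1 for Ogdh (29810). SCI8d replicate 2 was high for Alas2 (10100) and low for Oxct1 (4416), and SCI8d replicate 3 was low for Nqo1 (1377).

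For 19 named genes that passed against CTR, limma also found a difference between day 8 and day 3, given here as SCI8d minus SCI3d on the log2 scale. Higher at day 8 were Actn3 (4.13), Tnc (2.47), Fap (1.89), Lox (1.78), Prc1 (1.75), Cdk1 (1.62), Oxct1 (1.52), Igfbp6 (1.19), Ldha (0.92) and Cdh15 (0.60). Lower at day 8 were Aqp7 (-2.0), Per1 (-1.69), Acot2 (-1.43), Acads (-1.07), Eci1 (-1.07), Acadvl (-0.96), Psmd11 (-0.78), Prdx5 (-0.76) and Hadhb (-0.57).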

How the results depend on the processing

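The counts moved by more than 1.5 times from 934 rising and 1018 falling probe sets under few settings. Array weights gave 2005 and 1962, and the methods' t-test 338 and 544 after adjustment (6272 at an unadjusted p under 0.05). A fit of 1 probe set per gene gave 587 rising, but of 14217 tested instead of 31042. The main fit had 489 rising genes by that count. Leaving out 1 array gave 506 to 1653 rising and 603 to 1745 falling, with both highest values without SCI8d replicate 1, and with 506, 513 and 508 rising and 603, 664 and 635 falling without SCI8d replicates 2, 5 and 6. Without SCI8d replicate 1 and CTR replicate 2 together, a choice made after seeing the data, the counts were 1294 and 1326. The 2109 probe sets against day 3 became 597 with a model of the 2 groups alone and 53 in the methods' t-test, and 1339 (without SCI3d replicate 2) to 2659 (without SCI8d replicate 2) when 1 array was left out, with 1343 and 1405 without SCI8d replicates 4 and 6. The 0 against day 14 became 1 with no intensity trend, 1 with array weights, and 0 to 9 when 1 array was left out, with 9 without SCI14d replicate 1, 5 and 2 without SCI8d replicates 1 and 3, and 1 without SCI14d replicate 4. Replicate numbers are shared by the groups, but deviations of same-numbered arrays correlated only at -0.0126 to 0.0467 and 1 of 6 numbers matched best, so the replicate block is no pairing and gave 952 rising and 1083 falling. The causes of these shifts were not tested.

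Of 3175 values of named genes under the alternatives, 2878 kept direction and call, 241 lost the call, 33 gained it and 23 changed sign, all in Bmpr2, Myh7, Smad4 and Smad6, which were near 0. Bmpr2 was at 0.0477 with array weights and 0.00679 without both arrays named above, Myh7 at -0.0465 with quantile normalization, -0.0387 with median centring and -0.0432 with array weights, Smad4 at -0.0233 with median centring and -0.0339 without both arrays, and Smad6 at 0.0407 without both arrays. When 1 array was left out, Bmpr2 ran from -0.157 to 0.112, Myh7 from -0.0704 to 0.11, Smad4 from -0.0285 to 0.101 and Smad6 from -0.241 to 0.267. Actn3, Ahsp, Ankrd1, Col3a1, Col5a2, Col6a2, Col6a3, Ddit4, Fap, G0s2, Grm4, Lox, Nqo1, Odc1, Psmd11, Scx, Tnnc2 and Tnnt3 kept their call in all 12 omissions but not in the methods' t-test. Dim genes such as Prc1, E2f8, Npw and A2m have signals near the bottom of the scale in controls, where log2 fold changes are least certain.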
